A study of Mus musculus with 4 samples.

Results

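A set of 10 genes of brain endothelium and its barrier were followed in septal tissue of mice: Cldn5, Ocln, Flt1, Pecam1, Tek, Slco1a4, Abcb1a, Mfsd2a, Slc2a1 and Tfrc. They were chosen by symbol, as 10 named genes among 15409 gene rows, and not by their values. Of the 10, 9 were among the listed rows. Abcb1a, which encodes the drug efflux pump P-glycoprotein, was not among them and was not analysed here. RNA sequencing compared TCRb-/- mice, deficient in T cell receptor beta, with WT mice. Restraint of 30 min was applied on 3 days to mice of both genotypes, and tissue was taken 1.5 h after the end of the stress. Each genotype had 2 libraries, 1 in experiment 1 and 1 in experiment 2, and each library was made from tissue of 4 to 5 mice combined. A replicate is thus a pool of animals, its number is its experiment, and no unstressed mice were among these samples. Age, sex and the rest of the strain background are not given in the labels used here.

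Brain capillaries are lined by endothelial cells that are sealed to each other by tight junctions and that let few solutes pass between or through them. Nutrients therefore enter the brain through transporters in the endothelial membrane, while pumps carry many foreign compounds back into the blood. Several of these transporters are not exclusive to endothelium: glucose transporter 1 is also made by astrocytes and choroid plexus, and the transferrin receptor by neurons.

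The libraries held between 19988137 and 26210790 reads, and 1 read was worth between 0.0382 and 0.050 reads per 1000000 reads of the library (CPM). The targeted locus matched the labels: Trbc2, a constant gene of that locus, had 0 reads in TCRb-/- replicates 1 and 2, so that up to 0.122 and 0.150 CPM remain possible. It had 6.45 and 3.85 CPM in WT replicates 1 and 2. The libraries differed more by experiment than by genotype. Striatal genes stood apart in TCRb-/- replicate 2, where 15 of 16 had their lowest value, against 31.7% of all genes tested. The sum over choroid plexus genes was 2202 CPM in TCRb-/- replicate 1 and 7032 in replicate 2, beside 1347 and 4276 CPM in the WT libraries.

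The RNA was taken from a homogenate from which debris had been spun down before detergent was added, per the labels' protocols. Several markers that define endothelium were low in it. Cdh5, the cadherin of endothelial junctions, was not among the listed rows, and 21 of 26 other endothelial identity genes were. Kdr, the main receptor of vascular endothelial growth factor, had between 1.45 and 2.20 CPM, and Tie1 between 0.492 and 1.00 CPM. Itm2a and Egfl7, picked after their values were seen, were higher, with 20.2 to 21.3 and 16.1 to 18.7 CPM. Summed over the 21 genes, endothelial identity RNA was 86.8 and 77.1 CPM for TCRb-/-, beside 81.6 and 74.6 CPM for WT. Itm2a and Egfl7 held a large part of each of these sums. The genotypes overlapped in that sum. In bulk tissue, fewer cells of a type and less RNA per cell cannot be told apart.

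Per length of the longest annotated transcript, the 9 listed genes spanned from 0.161 to 12.9 CPM per kb. Slc2a1, which encodes glucose transporter 1, was highest, at 12.9 CPM per kb, the 66.6th percentile of 14989 genes ranked. Mfsd2a, a transporter of lysophosphatidylcholine that also restrains vesicle transport across endothelium, followed at 10.8. Their ranges overlapped, although Slc2a1 was the higher in each of the 4 libraries. Tfrc, the transferrin receptor that takes up iron, had 4.95 CPM per kb and Ocln, the tight junction protein occludin, 2.39. Slco1a4, an organic anion transporter, and Cldn5, the principal claudin of brain endothelial tight junctions, had 1.06 and 1.05 and could not be ordered, each being higher in 2 of 4 libraries. The receptors Flt1 and Tek and the adhesion molecule Pecam1 lay at 0.240, 0.161 and 0.233, all at or under the 5.00th percentile, with overlapping ranges. Reads of close paralogs, such as Slco1a5 for Slco1a4, may have been split or dropped in counting, so the level of Slco1a4 is uncertain.

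**Figure D1:**
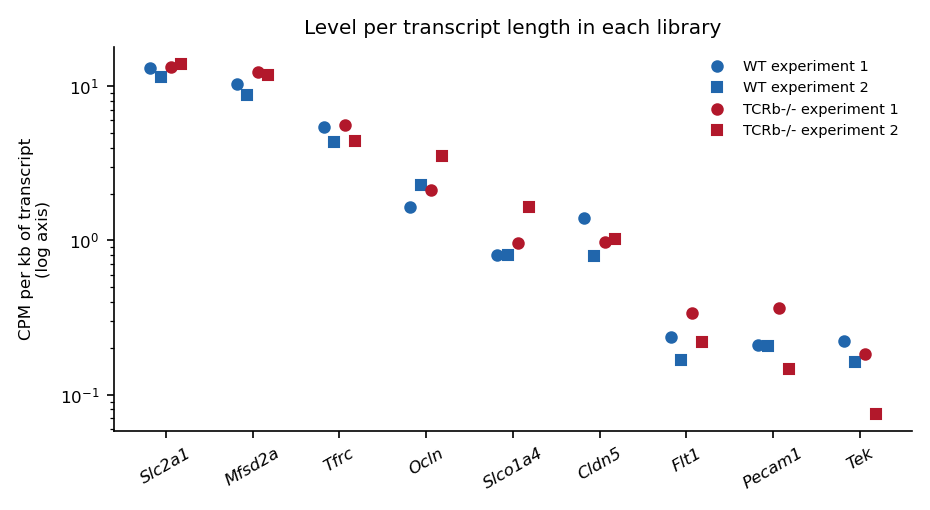
Level of the 9 listed genes in CPM per kb of the longest annotated transcript (log axis), 1 point per library, by genotype (colour) and experiment (shape). Slc2a1 lies furthest left, at a mean of 12.9, and Flt1, Pecam1 and Tek on the right, between 0.161 and 0.240. The transporter Slco1a4 lies beside Cldn5, near the middle.

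Cldn5, Flt1, Tek and Pecam1 had the fewest reads of the 9 genes. Cldn5 lies on chromosome 16 from 18776847 to 18778262 in GRCm38 as a gene of 1 exon. It had 34 and 29 reads in TCRb-/- replicates 1 and 2, or 1.38 and 1.45 CPM, and 52 and 25 reads in WT, or 1.98 and 1.12 CPM. The TCRb-/- values lay between the WT values. The exact 95% counting intervals of all 4 libraries overlapped, from 0.724 to 1.65 CPM in the lowest and from 1.48 to 2.60 in the highest. The fitted difference, TCRb-/- minus WT in log2(CPM + 1), was -0.06 (SE 0.25).

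Flt1, a receptor that binds vascular endothelial growth factor and limits its signal, lies on chromosome 5 from 147561604 to 147726011. It had 2.32 and 1.50 CPM in TCRb-/- and 1.64 and 1.16 CPM in WT, from between 26 and 57 reads. Within each experiment the TCRb-/- library was the higher, while the genotypes overlapped. Its log2 difference by genotype was 0.27 (SE 0.25), and from 0.066 to 0.47 when 1 library was left out, the lowest without TCRb-/- replicate 1. Tek, the angiopoietin receptor Tie2 (chromosome 4, 94739289 to 94874976), had 21 and 7 reads in TCRb-/- and 27 and 17 in WT, or 0.854 and 0.350 against 1.03 and 0.760 CPM. Pecam1, a molecule of endothelial contacts that leukocytes also carry (chromosome 11, 106654217 to 106750628), had 31 and 10 reads in TCRb-/- and 19 and 16 in WT. That is 1.26 and 0.500 against 0.725 and 0.716 CPM, so that TCRb-/- held both the highest and the lowest library. Tek and Pecam1 had a mean under 1 CPM and did not enter the test. Differences in these genes smaller than their counting intervals were not detectable at this depth.

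**Figure D2:**
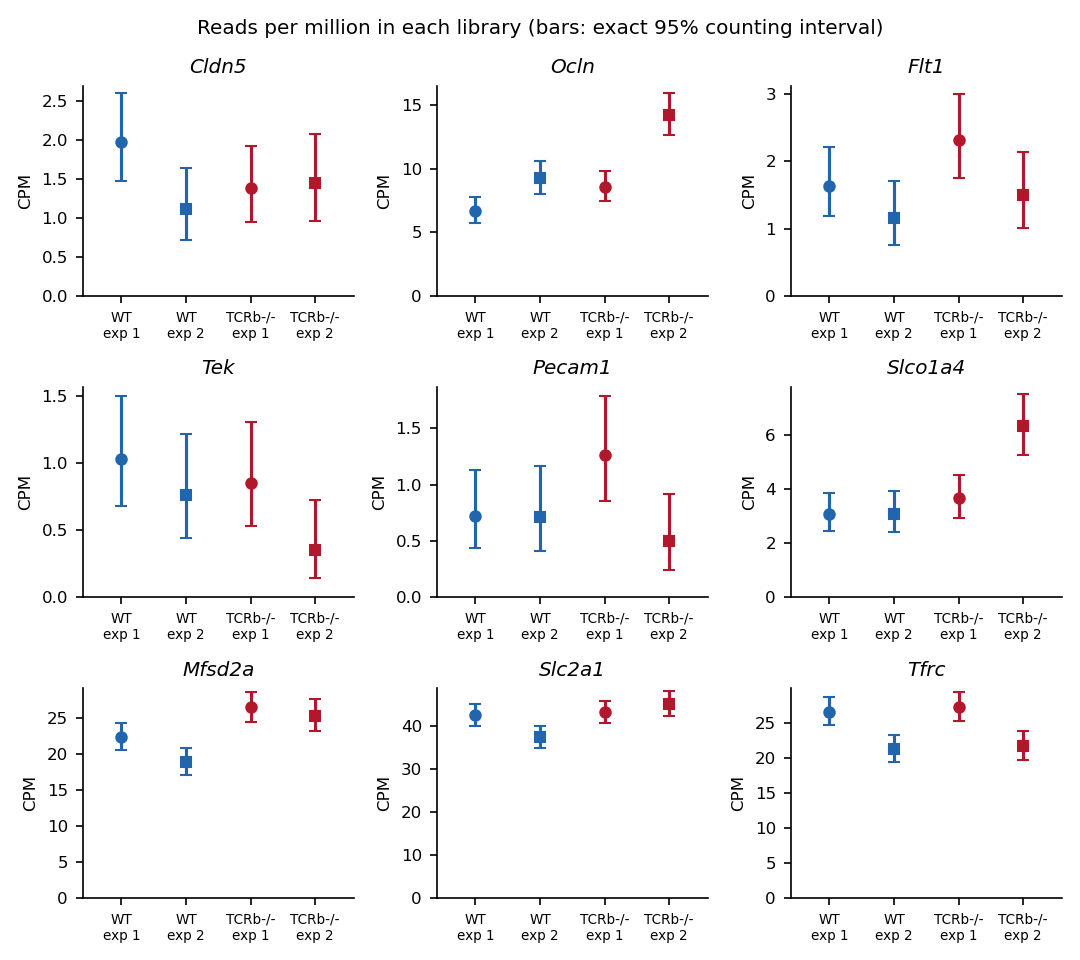
CPM of each of the 9 listed genes in the 4 libraries, with exact 95% counting intervals as bars and axes that start at 0. The points of Mfsd2a, Slc2a1 and Slco1a4 are higher in both TCRb-/- libraries than in both WT libraries (9.76% of all genes tested). For each of them, intervals of some TCRb-/- and WT libraries overlap. The intervals of Cldn5 overlap in all 4.

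The genotype comparison asked whether barrier genes differ in stressed mice without alpha-beta T cells. Of the 10 genes, 7 had a mean of at least 1 CPM and were tested, and 0 passed the threshold of an adjusted p under 0.05 in limma, against 0% of all 13912 genes. The unadjusted p was under 0.05 in 0 of 7, against 0.309%. Their median log2 difference was 0.27, with 0.00 over all genes, and from 0.13 to 0.23 when 1 library was left out, the lowest without WT replicate 2. Within both experiments, 6 of 7 were higher in TCRb-/-, against 27% of all genes, the exception among those tested being Cldn5. Of the 6, Tfrc differed by only 0.04 and 0.03, and Slc2a1 by 0.02 in experiment 1. Tek, not tested, was lower in TCRb-/- within both experiments (-0.13 and -0.38). Pecam1, also not tested, was higher in experiment 1 and lower in experiment 2 (0.39 and -0.19). In 3 of 7, Slco1a4, Mfsd2a and Slc2a1, both TCRb-/- libraries lay above both WT libraries, against 9.76%. Both counts were the same under each of the 4 scalings tried. With the experiment as a block, 3 of 7 had an unadjusted p under 0.05 (5.64% of all genes) and 0 passed the adjusted threshold (0.0144%).

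The 3 genes whose genotypes did not overlap each encode a transporter. Among 16 other barrier transporters, 1 (6.25%) had both TCRb-/- libraries above both WT libraries, against 9.76% of all genes. That gene was Slc7a5, named here after its values were seen. The promoters of Slco1a4, Mfsd2a and Slc2a1 are shown as 250 bases before to 50 bases after the RefSeq gene start, on the gene's strand, to set the sequences of genes with the same order of genotypes side by side. Capitals mark ACGTG or GCGTG on either strand, the core that hypoxia-inducible factors bind. The sequences are from RefSeq, GRCm38.p6, at chr6:141856171-141856470 (minus), chr4:122961139-122961438 (minus) and chr4:119108495-119108794 (plus).
Slco1a4: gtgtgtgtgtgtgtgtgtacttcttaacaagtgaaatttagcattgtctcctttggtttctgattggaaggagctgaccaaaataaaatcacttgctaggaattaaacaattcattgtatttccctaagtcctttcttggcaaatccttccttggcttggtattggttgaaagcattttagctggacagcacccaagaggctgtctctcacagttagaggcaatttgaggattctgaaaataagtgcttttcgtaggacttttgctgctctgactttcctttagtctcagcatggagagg
Mfsd2a: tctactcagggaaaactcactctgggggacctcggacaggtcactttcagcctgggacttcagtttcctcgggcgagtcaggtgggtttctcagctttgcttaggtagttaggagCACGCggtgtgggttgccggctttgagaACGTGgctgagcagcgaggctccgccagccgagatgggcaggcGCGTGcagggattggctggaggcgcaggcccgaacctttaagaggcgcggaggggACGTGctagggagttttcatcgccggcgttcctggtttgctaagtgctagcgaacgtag
Slc2a1: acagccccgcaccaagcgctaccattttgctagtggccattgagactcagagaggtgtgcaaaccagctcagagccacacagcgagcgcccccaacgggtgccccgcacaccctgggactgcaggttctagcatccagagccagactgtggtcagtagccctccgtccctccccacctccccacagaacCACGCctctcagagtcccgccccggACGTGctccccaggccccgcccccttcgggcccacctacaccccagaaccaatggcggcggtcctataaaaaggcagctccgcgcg
The 3 promoters were unlike each other. That of Slco1a4 was 40.7% G or C with 1 CpG and none of these cores. Mfsd2a had 60.3%, 22 CpG and 4 cores, and Slc2a1 had 65.3%, 18 CpG and 2 cores. Over all 32851 RefSeq promoters, 43.8% held a core, the median G or C content was 52.7% and the median was 7 CpG. The ETS core CGGAAG, on either strand, was in none of the 3 and in 16.9% of all promoters. TGTTCT, a motif of the glucocorticoid receptor, was in none of the 3 and in 19.0% of all. Of the 10 genes 9 were in the promoter table, all but Pecam1, and Ocln and Tfrc had 2 starts each. Outside the 3, hypoxia cores were found in Ocln, Flt1 and Tfrc, TGTTCT in Tek and Abcb1a, and CGGAAG in Tfrc.

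Mfsd2a (chromosome 4, 122946850 to 122961188) had 26.5 and 25.3 CPM in the TCRb-/- libraries, beside 22.4 and 18.9 CPM in the WT libraries. Its group means were 25.9 ± 0.823 and 20.6 ± 2.43 CPM (SD, n = 2 each). All values rested on at least 423 reads, and the TCRb-/- library was higher by 0.23 in experiment 1 and 0.40 in experiment 2 on the log2 scale. The fitted difference was 0.32 (SE 0.16). Its adjusted p in limma was 1.00 and, with the block, 0.848 (unadjusted 0.0164).

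Slco1a4 (chromosome 6, 141805440 to 141856199) had 3.66 and 6.30 CPM in TCRb-/- and 3.09 and 3.09 CPM in WT. The group means were 4.98 ± 1.87 and 3.09 ± 0.00303 CPM (SD, n = 2 each). TCRb-/- replicate 2 was the high one, its exact 95% interval from 5.25 to 7.51 CPM lying above those of the other libraries. The difference was 0.19 in experiment 1 and 0.84 in experiment 2, and the fitted one was 0.51 (SE 0.27, adjusted p 1.00 in limma, 0.848 with the block, unadjusted 0.0363). Without TCRb-/- replicate 2 the fitted difference was 0.19, and without TCRb-/- replicate 1 it was 0.84.

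Slc2a1 (chromosome 4, 119108711 to 119137983) had 43.1 and 45.1 CPM in TCRb-/- and 42.5 and 37.4 CPM in WT, from at least 836 reads. The libraries of experiment 1 differed by 0.02 on the log2 scale and those of experiment 2 by 0.26. The fitted difference was 0.14 (SE 0.14), with 0.053 without WT replicate 2 and 0.23 without WT replicate 1. The lowest TCRb-/- value lay just above the highest WT value, and their exact intervals, 40.6 to 45.8 and 40.0 to 45.0 CPM, overlapped.

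Ocln (chromosome 13, 100496507 to 100552718, 9 exons in its longest model) had 8.58 and 14.2 CPM in TCRb-/- and 6.68 and 9.26 CPM in WT. Its group means were 11.4 ± 3.98 and 7.97 ± 1.83 CPM (SD, n = 2 each), and the genotypes overlapped. Within each experiment TCRb-/- was higher, by 0.32 and 0.57, for a fitted difference of 0.44 (SE 0.29, adjusted p 1.00 in limma, 0.848 with the block, unadjusted 0.0134). Leaving out 1 library gave from 0.11 without TCRb-/- replicate 2 to 0.78 without TCRb-/- replicate 1. Tfrc had 27.3 and 21.7 CPM in TCRb-/- and 26.6 and 21.2 CPM in WT. Its genotype difference was 0.04 and 0.03 in the 2 experiments, and the fitted one was 0.03 (SE 0.19).

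**Figure D3:**
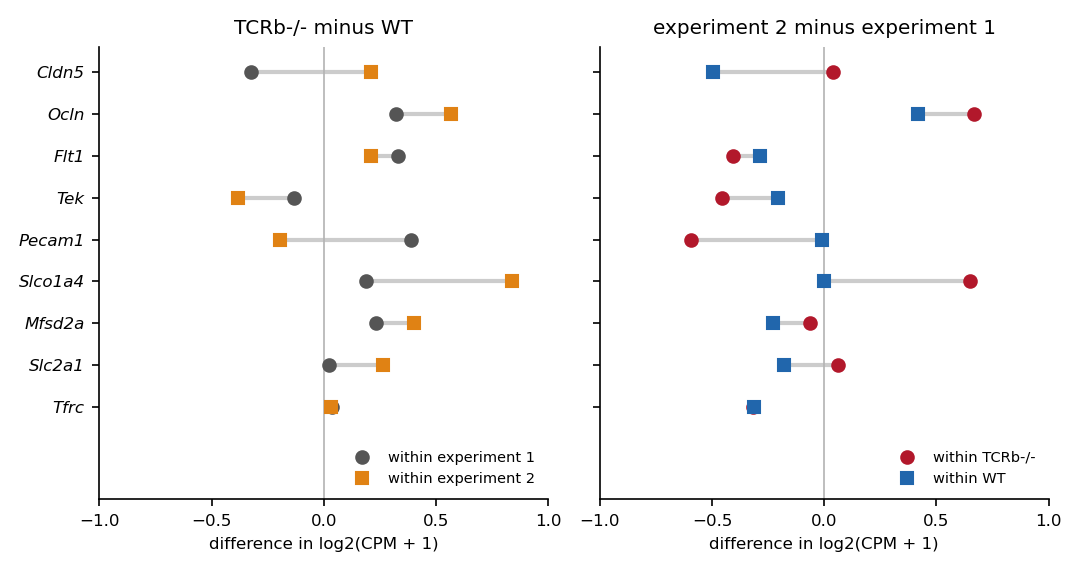
Differences in log2(CPM + 1) of the 9 listed genes, TCRb-/- minus WT within each experiment (left) and experiment 2 minus experiment 1 within each genotype (right), 1 point per pair of libraries. In the left panel Ocln, Slco1a4, Mfsd2a, Flt1, Slc2a1 and Tfrc lie above 0 in both experiments, Tfrc close to 0, and Tek lies below 0 in both. In the right panel Tfrc lies at -0.32 and -0.31.

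The experiments were then compared, with both genotypes on each side, to see how far barrier genes differed between tissue pools. Of the 7 genes, limma called 0 higher (8.95% of all genes) and 1 lower in experiment 2 (14.7%). The gene called lower was Tfrc. With genotype as a block it was 1 higher (9.29%), which was Ocln, and 0 lower (15.4%). Over all genes 37.8% of the calls were higher in experiment 2, and 50.6% under quantile normalization. Both libraries of experiment 2 lay above both of experiment 1 in 1 of 7 genes, Ocln (30.1% of all genes), and below in 2 of 7, Flt1 and Tfrc (37.2%). The median difference of the 7 was -0.15, with -0.03 over all genes. It ranged from -0.33 without TCRb-/- replicate 2 to 0.055 without WT replicate 2, so that its direction rested on 1 library.

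Tfrc (chromosome 16, 32608920 to 32632794) had 26.9 ± 0.495 CPM in experiment 1 and 21.5 ± 0.331 CPM in experiment 2 (SD, n = 2 each). The difference, experiment 2 minus experiment 1, was -0.32 within TCRb-/- and -0.31 within WT. The fitted difference was -0.31 (SE 0.09). The adjusted p in limma was 0.0477, or 0.0528 with genotype as a block. Over all alternatives its adjusted p ran from 0.0394 to 0.218, and with the trend on gene length removed the difference was -0.19 (adjusted p 0.201 in limma). Longer genes were lower in experiment 2 across 13552 genes (Spearman rho -0.398, a description, genes not being replicates), and the merged exons of Tfrc span 6185 bases.

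Ocln had 7.63 ± 1.35 CPM in experiment 1 and 11.7 ± 3.50 CPM in experiment 2 (SD, n = 2 each). It was higher in experiment 2 by 0.67 within TCRb-/- and 0.42 within WT, for a fitted difference of 0.54. The adjusted p in limma was 0.0953 (SE 0.21) and 0.0273 (SE 0.14) with genotype as a block. Leaving out 1 library gave differences from 0.26 without TCRb-/- replicate 2 (adjusted p 0.412) to 0.83 without WT replicate 2 (adjusted p 0.00469 in limma), and the other omissions made no call. In the fit without WT replicate 2, Slco1a4 was also called, at a log2 difference of 0.74 (adjusted p 0.0186 in limma) against 0.32 with all libraries. Flt1 was lower in experiment 2 by 0.41 and 0.29 within TCRb-/- and WT (adjusted p 0.244 in limma). Cldn5, Mfsd2a and Slc2a1 differed between experiments by between -0.23 and -0.06, with adjusted p-values from 0.448 to 0.713 in limma.

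The order of the libraries for Ocln, from TCRb-/- replicate 2 through WT replicate 2 and TCRb-/- replicate 1 down to WT replicate 1, was that of the choroid plexus sum. Occludin is also a junction protein of choroid plexus epithelium. This order was found in 17 of 17 choroid plexus genes, with Ttr, the most abundant, at 4478, 2591, 1204 and 638 CPM. It was found in 1 of 7 of the endothelial and barrier genes and in 10.2% of all genes. Slco1a4, Mfsd2a, Slc2a1 and Tfrc did not have it. The part of choroid plexus RNA in the values of Ocln was not tested. Plvap, a protein of fenestrated endothelium such as that of choroid plexus, had 19.6 and 23.2 CPM in TCRb-/- and 20.3 and 23.7 CPM in WT.

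Among 17 genes that partner with claudins and occludin at junctions, 17 were tested. By genotype 0 passed the threshold with or without the block, and the median was 0.07. In experiment 2, 3 of 17 were called higher (8.95% of all genes) and 3 of 17 lower (14.7%). Cldn1, a claudin of epithelia and meninges, had 3.78 and 11.3 CPM in TCRb-/- and 4.62 and 8.72 CPM in WT, a difference between experiments of 1.08 (adjusted p 0.00809 in limma). Tjp3, a scaffold of epithelial tight junctions, was higher by 1.00 (adjusted p 0.0178 in limma). Tjp1, the scaffold ZO-1 that ties claudins to actin, differed by -0.61 (0.0279), and Cldn12 by -0.38 (0.0219). The order of the choroid plexus genes was found in 5 of the 17, against 10.2% of all genes. Lsr and Cldn3 had genotype differences of 0.57 and 0.48 and did not pass (adjusted p 0.848 for each in limma with the block).

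Of 18 other barrier transporters and transcytosis receptors, 16 were tested, and 0 passed by genotype with or without the block, with a median of 0.04. In experiment 2, 1 of 16 was called higher (8.95% of all genes) and 3 of 16 lower (14.7%). Slco1c1, which carries thyroxine, was higher by 0.62, with 23.0 and 39.9 CPM in TCRb-/- and 22.7 and 31.7 CPM in WT (adjusted p 0.0131 in limma). The zinc transporter Slc39a10 differed by -0.57, the lipoprotein receptor Lrp1 by -0.50 and Lrp8 by -0.60 (adjusted p-values 0.00535, 0.00637 and 0.0317 in limma). Astrocytes and neurons also express several of these genes.

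The other 17 tested genes of endothelial identity had a median genotype difference of 0.04, and 0 passed. Clec14a and Ly6c1 had the highest differences in the same direction in both experiments, 0.40 and 0.31, and Esam and Ptprb the lowest, -0.31 and -0.25. Between experiments 1 of 17 was called lower in experiment 2 (14.7% of all genes) and 0 higher (8.95%). Cd34, which endothelium shares with fibroblasts and progenitors, differed by -1.20, with 9.36 and 3.35 CPM in TCRb-/- and 8.58 and 3.31 CPM in WT (adjusted p 0.00501 in limma). Mural cells are the pericytes and smooth muscle that wrap vessels. Of 12 mural genes tested, 5 were called lower (14.7% of all genes) and 0 higher (8.95%) in experiment 2, with a median of -0.42, and 0 passed by genotype. The smooth muscle genes Acta2 and Tagln differed by -1.77 and -1.79 (adjusted p 0.00264 and 0.00714 in limma). Acta2 had 20.4 and 4.35 CPM in TCRb-/- and 15.3 and 4.61 CPM in WT. The others called were Myh11 of smooth muscle (-1.07), Notch3 (-0.78) and Vtn, which pericytes make (-0.58, adjusted p 0.0157 in limma). Pdgfrb and Rgs5, also made by pericytes, had differences of -0.42 and -0.43 that did not pass (adjusted p 0.0933 and 0.0581 in limma). In 11 of the 12 both libraries of experiment 2 lay below both of experiment 1, against 37.2% of all genes.

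Signals that build and maintain the barrier showed 0 genes past the threshold by genotype with or without the block. The 10 tested genes of the vascular endothelial growth factor and angiopoietin system had a median of 0.09 by genotype. Between experiments 0 were called, against 8.95% of all genes higher and 14.7% lower in experiment 2. Vegfa, the ligand of Flt1 and Kdr, had 43.5 and 44.5 CPM in TCRb-/- and 41.0 and 42.1 CPM in WT. The 13 Wnt and Norrin genes had a median of 0.06. Lef1, a transcription factor of canonical Wnt signalling that thalamic neurons also make, was higher by 1.31 in experiment 2 (adjusted p 0.0135 in limma). It was the 1 call among the 13, against 8.95% of all genes called higher and 14.7% lower. The ligands Wnt7a and Wnt7b had genotype differences of -0.25 and -0.20 and were not called. With the block Wnt7a was also called between experiments, as lower in experiment 2 (adjusted p 0.0376 in limma, 0.0623 without it). Of the genes of endothelial activation and leukocyte adhesion, 6 of 10 were listed and 4 tested. Vcam1, which binds leukocyte integrins, had 17.9 and 23.3 CPM in TCRb-/- and 17.8 and 19.7 CPM in WT and was not called in either comparison. Ackr1, a chemokine-binding receptor of venules, had 5.74 and 4.45 CPM against 7.63 and 6.53 CPM, a difference of -0.41 with an adjusted p of 1.00 in limma and 0.848 with the block. In caveolae and fenestrae, 3 of 7 genes were tested, and Cav2 was higher by 0.34 in experiment 2 (adjusted p 0.0384 in limma).

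Slc2a1 was set beside 12 genes of glucose use and hypoxia, all tested, of which 0 passed by genotype, with a median of -0.02. Between experiments their median was -0.07, and 2 of 12 were called higher (8.95% of all genes) and 1 of 12 lower (14.7%). Slc2a3, the glucose transporter of neurons, was lower in experiment 2, at a difference of -0.42 (adjusted p 0.0308 in limma), and the fitted difference of Slc2a1 was -0.06 (0.713). Pgk1 and Bnip3, both hypoxia-induced, were higher in experiment 2 by 0.31 and 0.30 (adjusted p 0.0165 and 0.0175 in limma). Other hypoxia-related genes did not pass, among them Ldha at -0.04, Car9 at -0.14 and Epas1 at -0.34. The sum over 14 astrocyte genes, cells that also make glucose transporter 1, was 3314 and 3251 CPM in TCRb-/- and 3013 and 3082 CPM in WT. It had both TCRb-/- libraries above both WT libraries, as Slc2a1 did, and its part in the values of Slc2a1 was not tested. A large part of that sum was Aldoc, named here after its values were seen, with 1557 and 1600 CPM in TCRb-/- and 1436 and 1478 CPM in WT. Of the 14 astrocyte genes, 4 had this order singly (9.76% of all genes), and their median genotype difference was 0.06. The choroid plexus and striatal lists had larger genotype medians, but these changed sign when 1 library was left out. Both lists differed more between experiments, with medians of 1.33 and -1.37. Over 17 choroid plexus genes the median was 0.58, and 17 of 17 were higher in TCRb-/- within both experiments (27% of all genes). An unadjusted p under 0.05 in limma with the block was found in 17 of 17 (5.64% of all genes). Ttr, the choroid plexus carrier of thyroxine, had a genotype difference of 0.85 and was, with Trbc2, 1 of the 2 genes of all that limma called with the block (adjusted p 0.0323). Leaving out 1 library gave choroid plexus medians from -0.09 to 1.33. The striatal median was -0.52, from 0.16 in experiment 1 and -1.16 in experiment 2, with 0 calls. It ranged from -1.53 to 0.52 when 1 library was left out. Lists for astrocytes, oligodendrocytes, microglia, neurons, blood and meningeal fibroblasts had genotype medians from -0.06 to 0.10 and 0 calls with or without the block. Of the 12 blood genes 2 were listed and 1 was tested, so its value stands for 1 gene.

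Tfrc was set beside 12 genes of iron handling. Iron-regulatory proteins bind hairpins with a CAGTGN loop, which protect Tfrc mRNA from decay and block translation of ferritin. The letters searched were C, 5 bases, CAGTG, 1 base other than G, and 5 bases that can pair with the first 5, in GENCODE vM21 untranslated regions on the sense strand. Tfrc had 4 such sites in its 3′ untranslated region. They are shown with the loop in capitals, 5′ to 3′, because Tfrc was the gene called between experiments in limma without the block.
Tfrc site 1: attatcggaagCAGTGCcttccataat
Tfrc site 2: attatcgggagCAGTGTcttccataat
Tfrc site 3: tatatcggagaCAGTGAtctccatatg
Tfrc site 4: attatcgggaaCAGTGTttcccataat
They start at bases 889, 1268, 1333 and 1380 of a region of 2458 bases. The same letters were found in the 3′ untranslated region of 100 of 21877 protein-coding genes (0.457%) and in the 5′ region of 23 (0.105%). Hairpins of another form, such as with a mismatch in these 5 pairs, were not searched for, so a gene without a match may still hold one. Of the 12 iron genes, those with a site of the form searched were Fth1, Ftl1 and Slc40a1, each with 1 in the 5′ region. They encode the ferritin subunits and the iron exporter ferroportin.
Fth1: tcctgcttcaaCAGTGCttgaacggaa
Ftl1: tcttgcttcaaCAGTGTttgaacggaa
Slc40a1: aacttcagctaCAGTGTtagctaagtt
None of the 12 iron genes passed the threshold by genotype or between experiments in limma without the block. With the block, 1 was called higher in experiment 2 (9.29% of all genes). It was Hfe, a regulator of iron uptake (0.49, adjusted p 0.0479 in limma). Fth1 had 2828 and 2771 CPM in TCRb-/- and 2657 and 2825 CPM in WT. Trf, the plasma iron carrier transferrin that oligodendrocytes and choroid plexus make, had 58.5 and 57.7 CPM against 53.8 and 56.6 CPM. The median difference between experiments was 0.03 over the 12 genes, beside -0.31 for Tfrc.

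**Figure D4:**
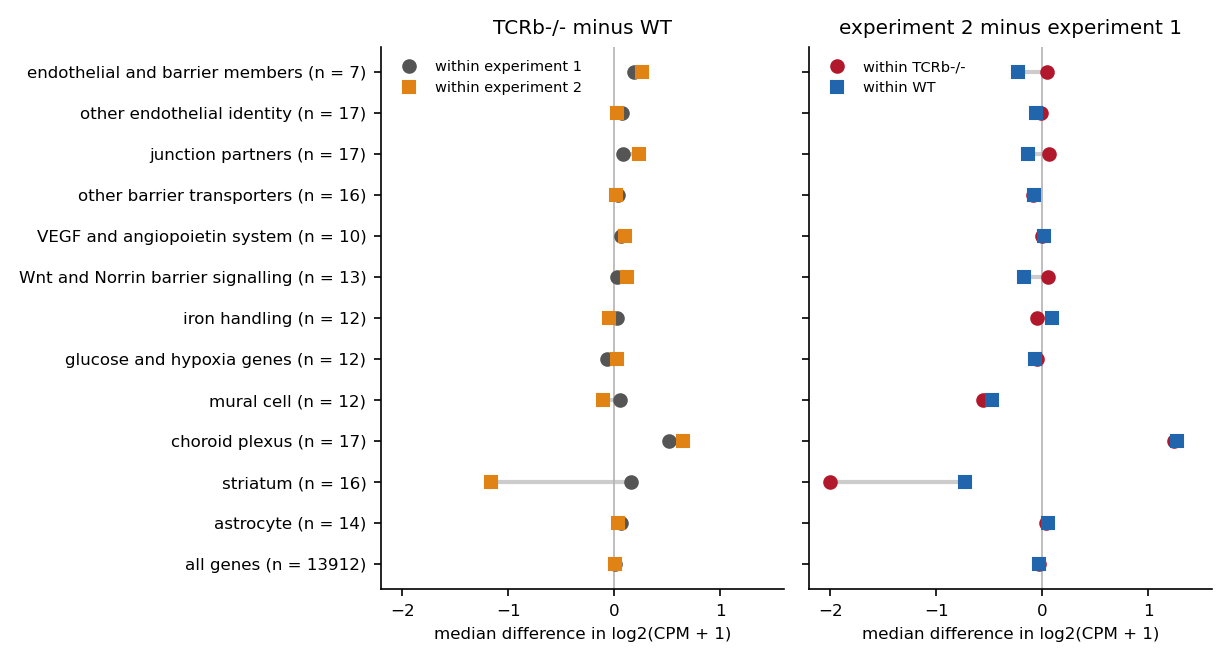
Median difference in log2(CPM + 1) of each gene list over its tested genes (n in brackets), TCRb-/- minus WT within each experiment (left) and experiment 2 minus experiment 1 within each genotype (right). The endothelial and barrier genes lie at 0.19 and 0.26 on the left, mural cell genes below 0 and choroid plexus genes above 0 in both genotypes on the right, and all genes near 0.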

How the data were processed

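Septal RNA of 4 pools was analysed, 2 per genotype. The deposited values are log2 CPM. Per the submitters' processing notes, HISAT2 2.1.0, SAMtools 1.3, HTSeq 0.9.1, R 4.0.5, limma 3.46.0 and build mm10 were used. Not given in the sources used here are the roles of these tools, the annotation and the rule for listing rows. From the values, the log2 form is log2((reads + 0.5)/(total + 1) × 1000000), and whole reads came out for 100% of rows within 0.01 reads. The minimum over rows was 10 reads in the highest library and 0.447 CPM in the second-highest, so lower genes were not listed. The 17 ERCC spike-in rows were left out of tests, 6 symbols were on 2 rows each, and gene lengths came from GENCODE vM21 (GRCm38) for 97.3% of gene rows.

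For genotypes and for experiments, limma 3.58.1 (R 4.3.3) was fitted to log2(CPM + 1), which understates changes of low genes, over the 13912 genes whose mean reached 1 CPM. The test used moderation with a trend, two-sided, Benjamini-Hochberg adjustment over all genes and a threshold of 0.05. Its check on simulated data required only the right direction of the changed genes, and gives no error rate for these data. An exact permutation test of 2 against 2 libraries cannot give a p below 0.333. P-values rest on the residual spread of each fit, moderated across genes. Without the replicate block, that spread holds the difference between experiments in the genotype fit, and between genotypes in the experiment fit. With the block, it is how far the genotype difference changed between experiments. None is a spread among pools of the same genotype and experiment. The labels make a replicate number a shared experiment, which pairs the samples. Across genes, deviations of same-numbered libraries from their genotype's mean had a correlation of 0.719, and the fit with that block is given where it changes a call. Intervals are exact Clopper-Pearson at 95%, floors are 3 reads, and both cover counting error only, since reads carry no molecular identifiers. Figures and tables used Python 3.11.15. Replicates were distinct (chi-square per degree of freedom 52.2 and 30.3).

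The members, the gene lists and the tests were chosen with earlier results of these data known. All 10 members are named. Of each other list the genes past the threshold were named (at most 4), the 2 at either end of the genotype differences that kept 1 direction in both experiments, and a few marker genes. Fth1, Ftl1 and Slc40a1 were added after their values or sequences were seen. Correlations between members were not computed, 4 libraries being too few.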

Additional observations from a re-analysis of the deposited data

Results flagged for a closer look

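Pecam1 and Cldn5 had genotype differences of opposite sign in the 2 experiments. For Pecam1, TCRb-/- minus WT in log2(CPM + 1) was 0.39 in experiment 1 and -0.19 in experiment 2, a change of -0.584. For Cldn5 it was -0.32 and 0.21, a change of 0.535. Each experiment has 1 library per genotype, so the change itself was not tested. Both genes rest on between 10 and 52 reads per library.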

How the results depend on the processing

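With all libraries, 150 of 164 values of single members under an alternative kept their direction and side of the threshold. Of the 10 that lost a call, all were Tfrc between experiments, and the 3 that gained one were Ocln between experiments. Slc2a1 between experiments, near 0, turned to 0.016 under quantile normalization. Members called by genotype numbered 0 under every alternative. Between experiments the count was 1 (Ocln) in the 3 fits with the replicate block. It was 0 with a pseudocount of 5 CPM, no filter, TMM scaling, median-of-ratios scaling, quantile normalization, no trend or the length trend removed, and 1 (Tfrc) with a pseudocount of 0.1 CPM or a filter at 10 CPM. Over all genes, the count by genotype was 2 with the replicate block, also 2 if the length trend was removed from that fit, and 1 in that fit with no filter, a fit chosen after seeing the data. Between experiments it was 629 without a trend. The cause was not tested. The block changed no other call of a member.

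Leaving out 1 library leaves a lone pool, assumed to vary like the others, and unbalances the experiments by construction. Ranges were 0 to 47 genes and 0 to 0 members by genotype, with 47 without TCRb-/- replicate 1, and 1406 to 3390 genes and 0 to 2 members between experiments. The 2 were Ocln and Slco1a4 without WT replicate 2, and Tfrc was called in none. The counts were 1406, 1823 and 1637 without TCRb-/- replicate 1, TCRb-/- replicate 2 and WT replicate 1. By genotype Cldn5 ranged from -0.30 to 0.19 and Tfrc from -0.13 to 0.19. Between experiments Slco1a4 ranged from -0.096 to 0.74, Mfsd2a from -0.35 to 0.055 and Slc2a1 from -0.19 to 0.074.

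Count-model tests had been planned as alternatives and were not run, although whole reads were recovered from the deposited log2 values. Ocln, Slco1a4, Cldn5 and Flt1 have means under 10 CPM and no value under the stricter filter. Depth limits Tek, Pecam1, Cldn5 and Flt1 most.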
